A study of Mus musculus with 51 samples.

Results

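The 10 macrophage identity genes described here are Csf1r, Adgre1, Itgam, Cd68, Lyz2, C1qa, C1qb, C1qc, Tyrobp and Fcer1g. They were chosen by name, and every probe set of the array annotated to 1 of these symbols and no other was taken, 14 probe sets in all of 34944 with a single symbol. Csf1r and C1qb have 3 probe sets each and the other members 1 each, and all 14 passed the filter on dim signals. All 10 members were therefore among the 15150 genes tested, of 18192 genes with a probe set.

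The arrays came from mice in which Wap-Cre, a recombinase made under the control of a milk protein gene's promoter in mammary epithelium, turns on a conditional Etv6-NTRK3 allele at the Etv6 locus. The same recombinase switches on lacZ from the Rosa-Stop-lacZ reporter, so that cells that recombined can be sorted as lacZ-positive. Of the 51 arrays, 19 hold lacZ-positive cells that were labelled epithelial: 4 are hyperplasias of 4 mice, 8 are primary tumors of 6 mice, and 7 are transplants at passages 1 to 4 whose tumors began in 5 mice. The remaining 32 hold unsorted tissue: 22 primary tumors of 14 mice (23 arrays), 4 transplants whose tumors began in 2 mice, and, as the control, 5 mammary glands of 5 wild-type mice that carried no tumor. Transplants grew in RAG2-/- recipients, which lack mature B and T cells and keep macrophages of their own. Whether macrophages in a transplant came from the host or with the tumor was not tested. Age, sex and strain were not used here, and beyond the mouse of origin the labels do not say how samples were collected, so that p-values measure the spread between these samples.

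Macrophages are tissue phagocytes that develop from embryonic precursors or from blood monocytes and depend on signals through the receptor encoded by Csf1r. In the mammary gland they lie around ducts and alveoli, take part in branching and in the clearance of cells after lactation, and are abundant in many mammary tumors. Csf1r binds the growth factors Csf1 and Il34. Adgre1 encodes an adhesion receptor and Itgam the CD11b chain of complement receptor 3, both used to recognise macrophages at the cell surface. Cd68 is a glycoprotein of late endosomes and lysosomes, and Lyz2 encodes lysozyme. C1qa, C1qb and C1qc encode the 3 chains of C1q, which starts the classical complement pathway. Tyrobp (DAP12) and Fcer1g (the Fc receptor gamma chain) are adaptors that carry signals from receptors such as Trem2 and the Fc receptors to the kinase Syk. Itgam, Lyz2, Tyrobp and Fcer1g are also expressed by neutrophils, and Tyrobp and Fcer1g by NK cells, so that these 4 genes are less restricted to macrophages than the others.

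Promoters of 6 members, taken from RefSeq (GRCm38.p6), are shown so that their letters can be set side by side for genes whose levels correlated across tumors. Promoters on 1 chromosome were left out of the choice, and none is shown for Csf1r, Adgre1, C1qa and Tyrobp. Each sequence holds the 250 bases before the annotated start of the gene, 5′ to 3′ on the gene's strand. Capitals mark GAGGAA or AGGAAGT on either strand (TTCCTC or ACTTCCT on the other), short forms of the sequence bound by Spi1 (PU.1), an ETS factor of macrophage development.
C1qb, chr4:136886201-136886450, minus strand: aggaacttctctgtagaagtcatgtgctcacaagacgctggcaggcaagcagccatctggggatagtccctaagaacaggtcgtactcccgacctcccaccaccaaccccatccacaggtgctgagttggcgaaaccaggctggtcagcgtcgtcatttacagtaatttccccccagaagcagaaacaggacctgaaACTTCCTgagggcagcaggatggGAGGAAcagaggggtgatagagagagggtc
C1qc, chr4:136892915-136893164, minus strand: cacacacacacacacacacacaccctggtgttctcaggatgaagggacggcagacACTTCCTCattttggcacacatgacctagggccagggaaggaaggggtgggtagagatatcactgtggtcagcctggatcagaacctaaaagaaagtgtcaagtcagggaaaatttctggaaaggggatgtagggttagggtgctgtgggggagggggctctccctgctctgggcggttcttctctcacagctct
Itgam, chr7:128062390-128062639, plus strand: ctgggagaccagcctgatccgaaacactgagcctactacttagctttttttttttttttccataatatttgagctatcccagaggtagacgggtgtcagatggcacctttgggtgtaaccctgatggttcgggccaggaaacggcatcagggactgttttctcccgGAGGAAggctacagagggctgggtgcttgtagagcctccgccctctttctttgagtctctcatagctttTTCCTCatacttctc
Lyz2, chr10:117282273-117282522, minus strand: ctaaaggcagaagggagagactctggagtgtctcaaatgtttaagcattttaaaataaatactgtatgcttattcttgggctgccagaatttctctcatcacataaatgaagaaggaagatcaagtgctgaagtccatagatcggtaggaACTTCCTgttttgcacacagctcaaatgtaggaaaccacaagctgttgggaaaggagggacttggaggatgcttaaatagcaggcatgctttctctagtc
Cd68, chr11:69666171-69666420, minus strand: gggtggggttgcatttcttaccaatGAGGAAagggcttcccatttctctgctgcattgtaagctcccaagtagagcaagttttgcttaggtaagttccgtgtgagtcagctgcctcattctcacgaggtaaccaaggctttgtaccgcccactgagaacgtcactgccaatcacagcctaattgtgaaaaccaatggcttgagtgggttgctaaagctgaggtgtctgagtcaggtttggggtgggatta
Fcer1g, chr1:171234350-171234599, minus strand: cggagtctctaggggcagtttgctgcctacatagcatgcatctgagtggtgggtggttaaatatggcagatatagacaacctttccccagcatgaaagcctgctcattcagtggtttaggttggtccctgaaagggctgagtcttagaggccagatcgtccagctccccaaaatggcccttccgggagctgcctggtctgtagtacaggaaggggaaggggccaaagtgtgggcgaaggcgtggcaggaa
C1qb holds ACTTCCT 53 bases and GAGGAA 30 bases before its start. In C1qc the 2 motifs overlap in 1 run of letters, at 195 and 193 bases before the start. Itgam holds GAGGAA on each strand, at 84 and 15 bases, and Lyz2 holds ACTTCCT at 100 bases. GAGGAA was present in 4 of the 6 promoters (also in Cd68, at 225 bases) and in 23.3% of 32851 promoters of this length, and AGGAAGT in 3 of the 6 and in 7.69%. Fcer1g held neither. These matches describe letters only. C1qa, C1qb and C1qc are consecutive protein-coding genes on chromosome 4 in the RefSeq order.

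The deposited values are linear intensities, 1 for each probe set and array. Intensities below 32 were set to 32 (log2 of 5) before logarithms were taken, and 37.4% of all values lay at this floor. Array medians ranged from 42.9 to 57.8, and precision is limited both by the small number of arrays and by a spread that differed between groups. Where a gene has several probe sets, 1 of them stands for it, and the others are given where they differ. The level of 1 gene's probe set is not compared with that of another gene. In sorted cells none of the 13 epithelial markers lay at the floor on every array of a group, and their summed intensity was 12500 to 25670 in hyperplasia, 17490 to 37090 in primary tumors and 15960 to 44460 in transplanted tumors. The 9 fibroblast markers were also well measured in the sorted cells, with sums of 18270 to 26130, 3172 to 37150 and 2040 to 17520. The summed intensity of the 10 members was 17510 to 41560, 1741 to 30570 and 1054 to 25050 in the same groups. The hyperplasias and some of the sorted tumors, all labelled epithelial, thus carried clear signal of macrophage genes. The dimmest sorted tumors lay below every unsorted sample, whose lowest sum was 2543, in a primary tumor.

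The members were brightest in sorted hyperplastic cells. For all 10 genes the sorted hyperplasia had the highest group mean and the sorted primary tumors the next highest, and the lowest group was the wild-type gland for 4 members, the unsorted transplanted tumors for 4, and the unsorted primary and sorted transplanted tumors for 1 each. Of the 50 pairs of neighbouring groups in these orders, 1 differed past the test's threshold, Itgam between sorted hyperplasia and sorted primary tumors. In bulk samples a change in the number of cells of a type and a change in RNA per cell cannot be told apart. The spread was uneven: for all 10 members the SD was larger in sorted than in unsorted primary tumors (median SD 1.53 against 0.71 on the log2 scale), and the same held for transplanted tumors (1.86 against 0.22).

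**Figure D1:**
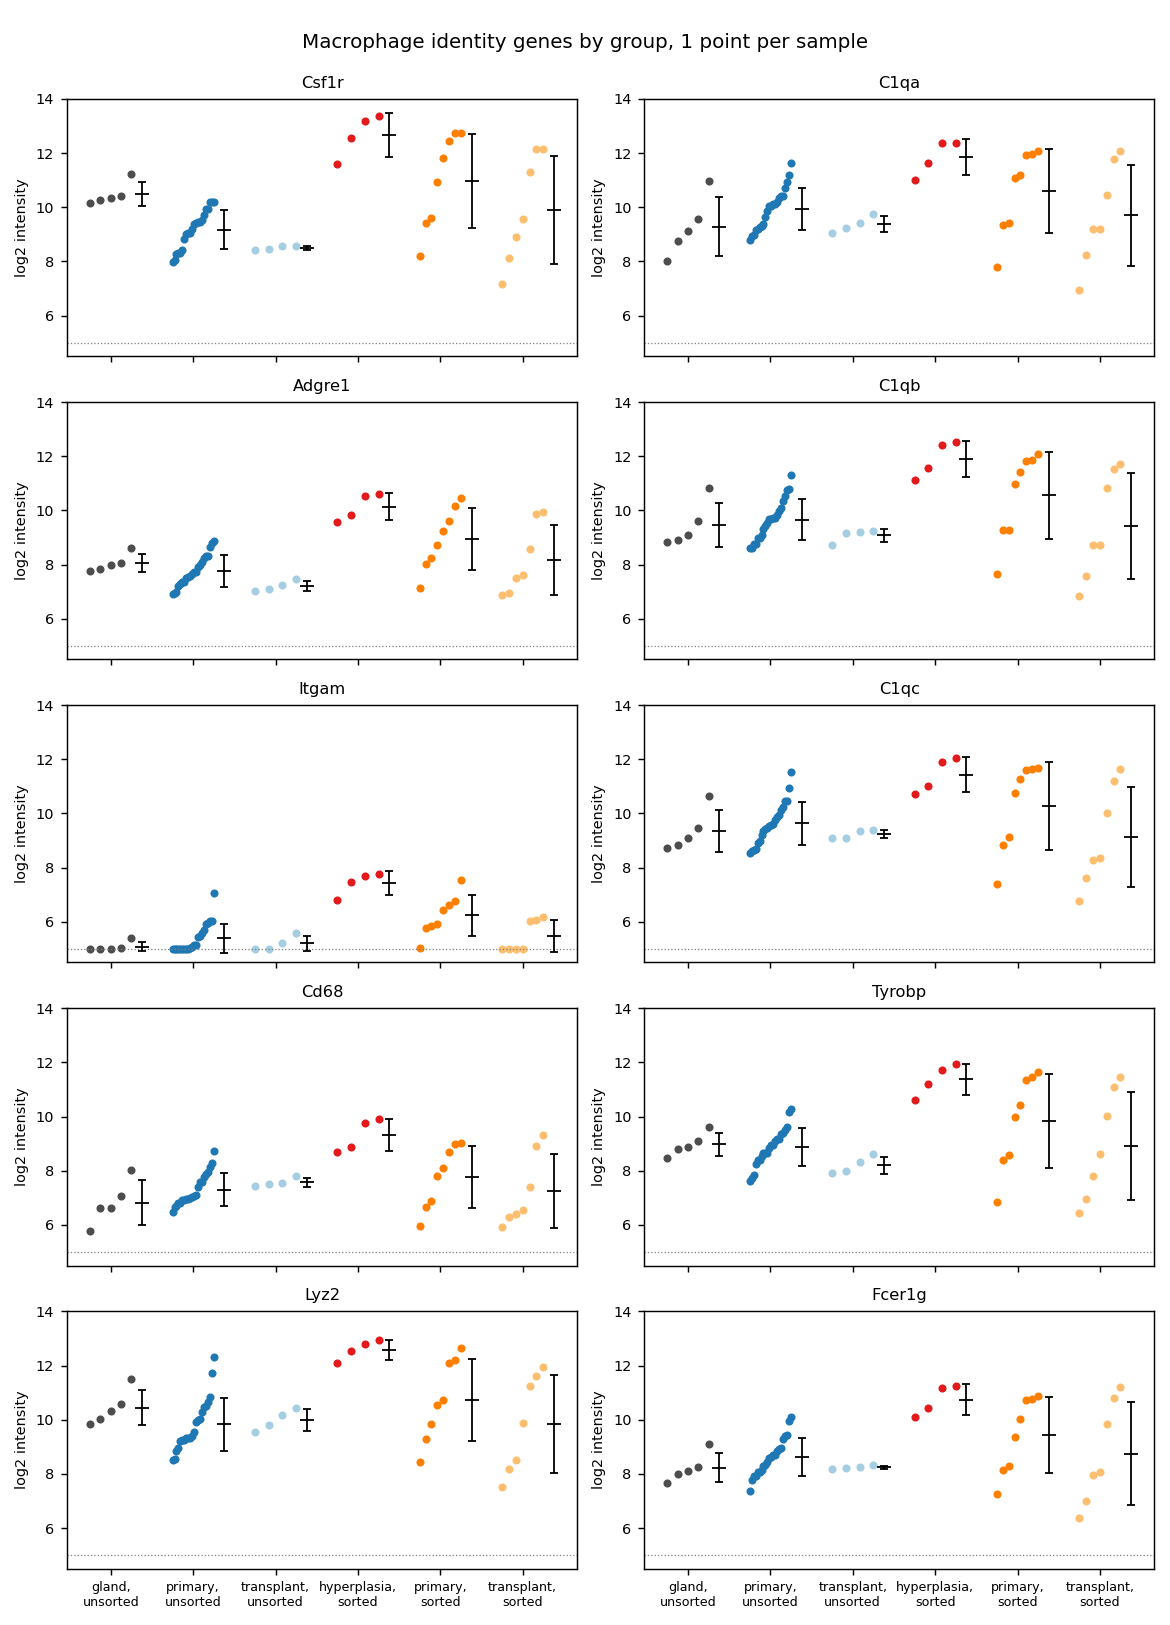
Log2 intensity (vertical axis, floor at 5 shown by the dotted line) of each of the 10 genes in the 6 groups, 1 point per sample in order of value, with the mean and SD of the group as a bar to the right. The 4 sorted hyperplasia samples lie above all 5 wild-type glands for every gene, and the sorted tumors spread over the whole range of the unsorted ones.

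Csf1r, the receptor on which macrophage survival depends, had intensities of 10515, 9193, 5989 and 3097 in the 4 sorted hyperplasias and of 1364, 2418, 1313, 1226 and 1147 in the 5 wild-type glands. The 2 groups did not overlap. In the 22 unsorted primary tumors Csf1r ranged from 249.7 to 1185 with a median of 628, in the 4 unsorted transplanted tumors it was 380.0, 353.5, 380.7 and 339.4, and in the sorted primary tumors it ranged from 294.5 to 6885 (median 2789). The 7 sorted transplanted tumors spanned 145.5 to 4536 with a median of 755.9. The sorted groups thus held both the brightest and the dimmest Csf1r signals of the series.

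Adgre1, an adhesion receptor gene of mature macrophages, was also brightest in hyperplasia and next in sorted primary tumors. Its intensity was 1465, 1558, 907 and 769.5 in the hyperplasias and 251.7, 389.4, 219.7, 268.2 and 228.6 in the glands, again without overlap. It ranged from 119.5 to 464.7 (median 204.0) in unsorted primary tumors and from 138.9 to 1408 (median 511) in sorted ones. The unsorted transplanted tumors were at 177.7, 151.7, 129.9 and 136.1, and the sorted ones between 117.9 and 972 (median 193.8). Each of the 4 unsorted transplants was dimmer than the dimmest gland.

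Itgam, the CD11b gene, was the only member that reached the floor. It was above the floor in 2 of 5 glands (32.6 and 42.0), 13 of 22 unsorted primary tumors (highest 133.7), 2 of 4 unsorted transplants (37.7 and 48.1) and 3 of 7 sorted transplants (67.4, 71.9 and 65.0). It was above the floor in all 8 sorted primary tumors (32.9 to 186.7, median 74.0) and in all 4 hyperplasias, at 204.9, 220.2, 110.9 and 176.5. Differences in Itgam against the groups near the floor are differences of floored values and understate the change. Flooring also removes spread (SD 0.17 on the log2 scale in glands), so that the SEs and p-values of Itgam rest in part on the floor.

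Among the genes of the phagocytic compartment, Lyz2 was at 7149.8, 7785, 5886 and 4325 in the hyperplasias and at 1519, 2893, 916, 1033 and 1276 in the glands. Its range was 361.4 to 5047 (median 715) in unsorted primary tumors and 348.9 to 6343 (median 1592) in sorted ones. The lysosomal gene Cd68 was at 955, 863, 419.1 and 473.9 in the hyperplasias against 134.4, 263.2, 98.3, 54.6 and 99.0 in the glands. Neither gene overlapped between these 2 groups, while the unsorted and sorted primary tumors overlapped for both.

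The 3 C1q chains followed the same order of hyperplasia over gland. C1qa was at 5312, 5350.2, 3143 and 2075 in the hyperplasias, C1qb at 5394, 5948, 2993 and 2251, and C1qc at 3820.0, 4275, 2095 and 1686. In the glands C1qa was at 753, 1995, 564, 261.1 and 430.6, C1qb at 782, 1833, 543.5, 460.7 and 485.8, and C1qc at 698, 1606, 454.3, 425.2 and 546.4. Gland replicate 2 was the brightest gland for each chain, and also for each of the 7 other members. Of the adaptors, Tyrobp was at 3332, 3948, 2378.0 and 1569.9 in the hyperplasias and 543.3, 784, 449.3, 466.2 and 356.4 in the glands, and Fcer1g at 2325, 2423, 1373 and 1088 against 302.2, 548.8, 203.7, 275.1 and 253.5.

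Sorting was the first comparison. The sorted and the unsorted primary tumors came from different mice, and every sorted array is listed after the unsorted primary ones. Sorting therefore cannot be told apart from mouse or from the order of the samples. In lacZ-positive cells sorted from primary tumors (n = 8) Csf1r, Adgre1 and Itgam were higher than in unsorted primary tumors (n = 22), that is, the growth factor receptor gene and the genes of 2 surface markers of macrophages. By limma, with Benjamini-Hochberg adjustment over all genes tested, Csf1r was higher by 1.96 ± 0.50 on the log2 scale (SE, 3.88-fold, adjusted p = 0.00315), Adgre1 by 1.27 ± 0.34 (adjusted p = 0.00456) and Itgam by 0.98 ± 0.23 (adjusted p = 0.00168). No other member was called, so 3 of 10 rose and 0 fell, beside 9.62% of all genes tested that rose and 15.7% that fell. All 10 differences lay above 0 with a median of 0.99, against a median of -0.05 over all genes. The groups overlapped for every member.

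The members that missed the threshold had values of the same sign. Tyrobp differed by 1.14 ± 0.49 (adjusted p = 0.0768 by limma), Lyz2 by 1.02 ± 0.49 (adjusted p = 0.125), C1qb by 1.01 ± 0.50 (adjusted p = 0.137) and Cd68 by 0.60 ± 0.36 (adjusted p = 0.236, 95% interval -0.13 to 1.33). In a fit of all 27537 probe sets that passed the filter the 3 Csf1r probe sets were each higher, by 1.96 ± 0.50, 1.79 ± 0.44 and 0.81 ± 0.25, and none of the 3 C1qb probe sets was called, at 0.84, 1.01 and 1.27, beside 10% of probe sets that rose. The probe sets of a gene thus gave 1 answer each in the sort, with a smaller size for 1 Csf1r probe set.

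**Figure D2:**
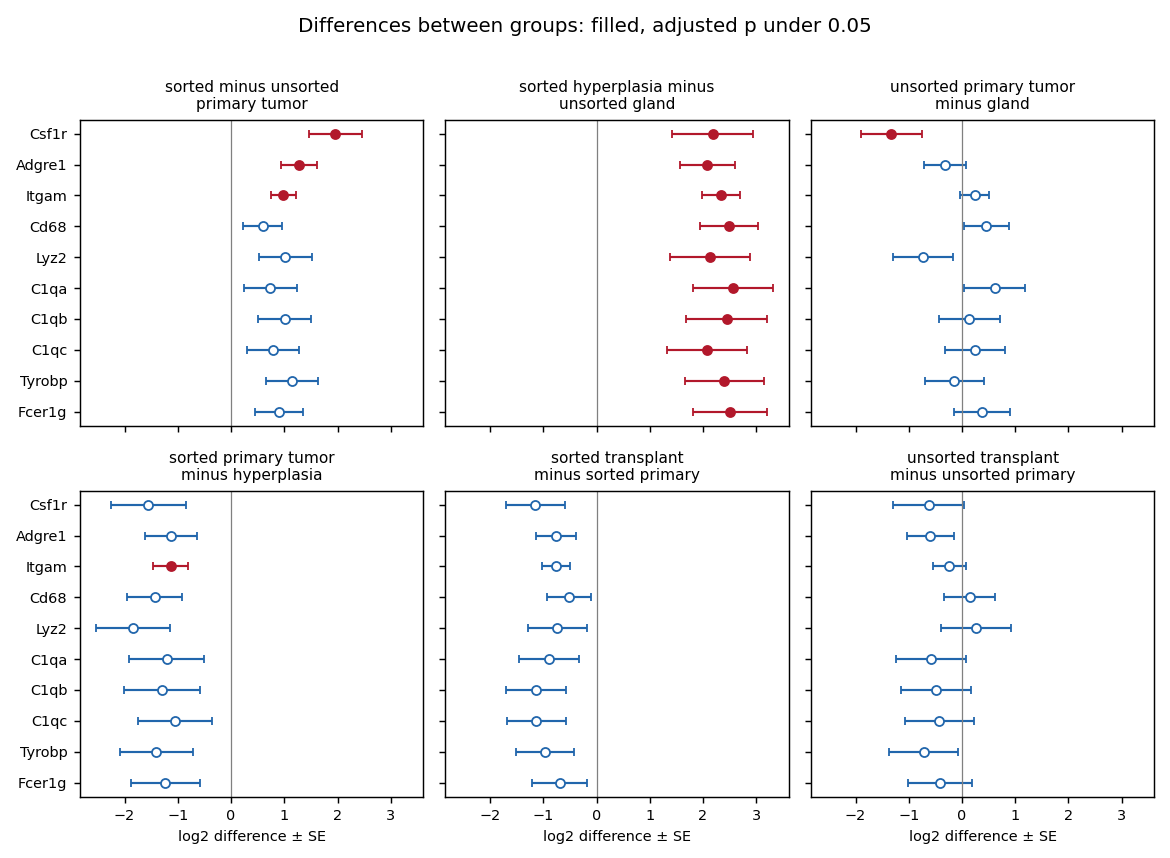
Log2 differences with their standard errors (horizontal axis) for the 10 genes in 6 comparisons, from limma with filled red points where the adjusted p lies under 0.05. All 10 genes were called in sorted hyperplasia against wild-type gland, 3 in the sort, and 1 each in tumor against gland (Csf1r) and in sorted tumor against hyperplasia (Itgam).

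The sorted arrays differed among themselves in these genes. The array carries control probe sets for the 3′ and the 5′ end of Gapdh, and the log2 ratio of the 2 divided the sorted arrays at -0.1, a split made after the values were seen. The sorted arrays above -0.1 are also the last in the order in which samples are listed, so the Gapdh ratio cannot be told apart from that order. Unsorted primary tumors, at -0.06 to 0.59, and unsorted transplants, at -0.04 to 0.09, all lay above -0.1. The glands spanned -0.30 to 1.14. The signal of the bacterial control transcripts added to each sample separated the same sorted arrays. It was 9.03 to 12.39 on the log2 scale in the 11 below and 8.03 to 8.80 in the 8 above. The 4 sorted primary tumors below came from 4 mice and the 4 above from 2, with 3 of them from mouse F433. The mean log2 intensity of the 10 members was 9.87 to 10.999 in the 4 sorted primary tumors below -0.1 and 7.17 to 9.80 in the 4 above, without overlap. In sorted transplants it was 8.01 to 10.70 in the 4 arrays below and 6.58 to 7.97 in the 3 above. In hyperplasia 3 arrays lay below, at 10.62 to 11.44, and 1 above, at 10.32.

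The sort was then fitted with the sorted arrays of each side alone. Because the split was placed with the member values in view, what follows describes the arrays of each side and is no test of the sort, and the difference between the sides was not tested. All unsorted tumors lay above -0.1, so in the fit with the sorted arrays below it sorting cannot be told apart from the Gapdh ratio. With the 4 sorted primary tumors below -0.1, the differences from unsorted tumors were 1.35 (Cd68) to 3.19 (Csf1r), and limma called 10 members beside 13.7% of genes tested. With the 4 above -0.1 it called none, beside 4.77% of genes, and 7 members lay below 0, from -0.41 (Fcer1g) to -0.82 (C1qc). Csf1r then differed by 0.12 (3.19 on the other side), Adgre1 by 0.27 and Itgam by 0.39. Fibroblast markers also moved with the split, with a mean log2 level over the 9 genes of 8.13 to 11.54 in sorted primary tumors below -0.1 and 7.76 to 8.02 above it, while epithelial markers were at 9.98 to 10.25 below and 9.84 to 11.05 above. The part of these markers, of the control transcripts and of the mice in the result was not tested.

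**Figure D3:**
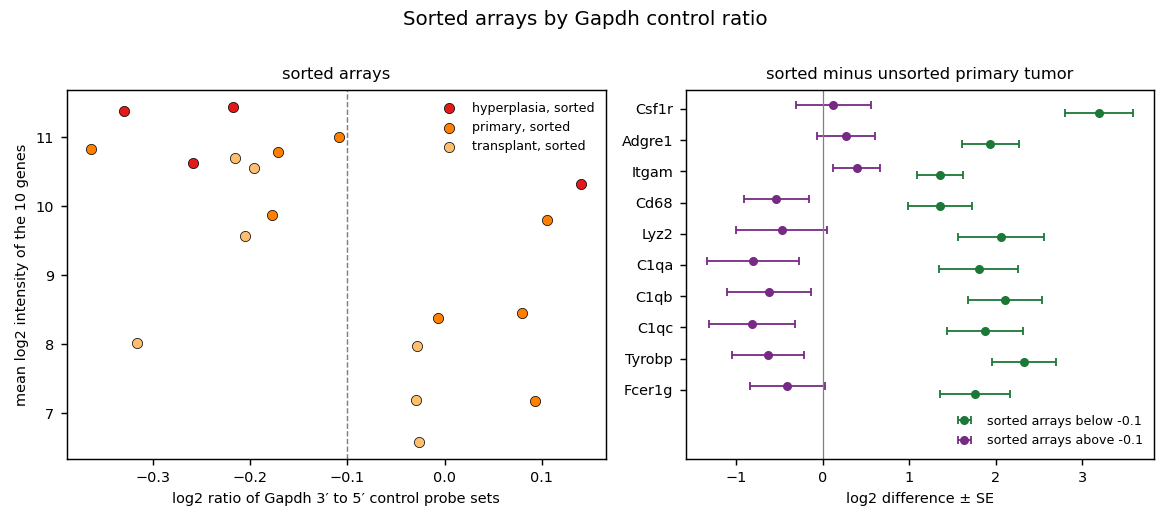
Left, the mean log2 intensity of the 10 genes (vertical axis) against the log2 ratio of the Gapdh 3′ to 5′ control probe sets (horizontal axis) on each of the 19 sorted arrays, with the split at -0.1 dashed. Right, the log2 difference of sorted minus unsorted primary tumors with its standard error for each gene, using only the sorted arrays on 1 side, which lies above 1.3 for all 10 genes below -0.1 and near or under 0.4 above it.

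Lists of genes related to macrophages were then counted in the sort, over the sorted arrays of both sides of the Gapdh split. The lists were not fitted for each side alone. The monocyte trafficking genes had the most calls: all 7 rose, led by the chemokine genes Ccl2 (2.40 ± 0.40, adjusted p = 1.31e-05 by limma), Ccl8 (2.37 ± 0.62) and Ccl7 (2.12 ± 0.45), with a list median of 1.73. Of 9 genes of the growth factor axis and lineage factors 5 rose and 0 fell, among them the transcription factor gene Maf (2.22 ± 0.40), the receptor gene Csf2ra (1.59 ± 0.30) and Csf1 (1.46 ± 0.27), the ligand of Csf1r. Of 14 phagocytic and scavenger receptors 6 rose and 0 fell, including the mannose receptor gene Mrc1 (2.28 ± 0.53), Cd14 (1.62 ± 0.32) and the haptoglobin-haemoglobin receptor gene Cd163 (1.61 ± 0.37).

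The list of ITAM partners holds receptors and kinases that work with Tyrobp and Fcer1g. Of its 12 genes 6 rose (Clec4d by 1.51 ± 0.38, Clec4e by 1.22 ± 0.28 and Lcp2 by 0.85 ± 0.25 had the largest rises) and 1 fell. Of 9 complement genes 2 rose, Cfp (1.78 ± 0.48), which encodes properdin, and C3ar1 (1.58 ± 0.38), a receptor for complement fragment C3a. Of 10 leukocyte genes 3 rose, with Cd53 at 1.69 ± 0.50, and of 12 lysosomal and secreted products 0 rose and 1 fell, the cathepsin gene Ctsd by 0.57 ± 0.21.

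Markers of other cell types were measured in the same comparison. No member of the neutrophil list (11 tested) or the T and NK cell list (7 tested) was called, while 2 of 8 dendritic cell genes rose (Cd83 by 2.90 ± 0.42 and Cd209a by 0.69 ± 0.24) and 2 of 9 fibroblast genes rose (Dpt and Pdgfra). In sorted primary tumors Cd3e, Cd4 and Ncr1 of the T and NK list lay at the floor on every array, as did Ccr7 of the dendritic list. The epithelial list had 1 gene higher (Cldn4) and 5 lower, with Krt19 at -1.43 ± 0.46 and Epcam at -0.69 ± 0.23. Neutrophil sums spanned 5745 to 13580 in sorted and 2788 to 15580 in unsorted primary tumors, and their part in the member values was not tested.

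Sorted hyperplastic cells (n = 4) against wild-type glands (n = 5) differed in every member. This comparison was taken from the order of the groups, and it crosses sorted cells with whole tissue. The glands differed in the Gapdh ratio, from -0.30 in replicate 2, the brightest gland, to 1.14 in replicate 4, the highest of all arrays. Gland replicate 4 was the dimmest gland for the C1q chains and Cd68. Whether the ratio had a part in the gland levels was not tested. All 10 members were higher, by 2.08 ± 0.75 (C1qc) to 2.56 ± 0.76 (C1qa), with limma adjusted p from 7.075e-06 (Itgam) to 0.0397 (C1qc), beside 11% of all genes tested. No member overlapped between the groups, beside 9.27% of genes with no overlap and a higher level. Csf1r was higher by 2.18 ± 0.76 (adjusted p = 0.0340), Cd68 by 2.49 ± 0.55 (adjusted p = 0.000968) and Fcer1g by 2.51 ± 0.69 (adjusted p = 0.00709). All 3 probe sets of Csf1r and all 3 of C1qb were called higher as well, with differences of 1.05 to 2.18 and 2.37 to 3.00, beside 10% of probe sets.

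The rise in hyperplasia rested on a small group. Hyperplasia replicates 1 and 2, which were also the brightest for the bacterial control transcripts added to each sample, carried the highest member levels, and without both of them 1 of 10 members was called (3.44% of genes). With the signal of those control transcripts as a covariate 2 were called (9.35% of genes). As a description of each side, the 10 differences lay above 0 in the 3 arrays below the Gapdh split (10 called beside 11% of genes, differences of 2.26 to 2.84) and in the 1 array above it (2 called beside 3.62% of genes, differences of 1.11 to 2.38, a lone sample assumed to vary like the other groups).

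Beside the members, the wider leukocyte genes moved in the hyperplasias. Of 10 leukocyte integrins and common leukocyte genes 9 rose against the gland (median 2.13), and of 12 lysosomal and secreted products 8 rose (median 1.90), with 0 lower in either list. Phagocytic and scavenger receptors rose for 6 of 14, ITAM partners for 4 of 12 with 1 lower, and complement genes for 2 of 9. In the growth factor axis 2 of 9 rose and among trafficking genes 1 of 7. Markers of dendritic cells rose for 5 of 8, whereas all 9 endothelial markers fell (beside 10.3% of all genes), none of 9 fibroblast markers was called, and 1 of 13 epithelial markers fell. The B and plasma cell markers, with sums of 1127 to 20050 in the hyperplasias, had 1 gene higher and 1 lower, and their part in the member values was not tested.

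Against unsorted primary tumors the hyperplasias were also higher for all 10 members, by 1.84 (C1qc) to 3.51 (Csf1r, adjusted p = 2.424e-05 by limma), beside 13.9% of genes. This comparison was also taken from the order of the groups, where hyperplasia was highest, and it too crosses sorted cells with whole tissue. The groups did not overlap for Csf1r, Adgre1 and Tyrobp, 3 of 10 members, beside 3.51% of genes. With the control transcripts as a covariate 2 members were called (6.49% of genes), without hyperplasia replicates 1 and 2 together 4 (4.44%), and with only the sorted arrays above the Gapdh split, 1 hyperplasia among them, 2 (2.8%).

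Wild-type glands and unsorted primary tumors, both whole tissue, differed in 1 member. Csf1r was lower in the tumors by 1.33 ± 0.58 on the log2 scale (adjusted p = 0.0495 by limma, groups overlapping), and no other member was called, beside 21.5% of all genes that fell. The member differences lay on both sides of 0 (6 above, 4 below, median 0.19 against 0.10 for all genes). C1qa differed by 0.61 ± 0.57, Cd68 by 0.46 ± 0.42 and Lyz2 by -0.73 ± 0.57, with adjusted p of 0.386, 0.373 and 0.289. The Csf1r call lies at the threshold and was lost without any 1 of the 5 glands (adjusted p from 0.0666 without replicate 5 to 0.133 without replicate 2). In the fit of all probe sets the 3 Csf1r probe sets differed by -1.33, -1.22 and -0.44 with adjusted p of 0.0519, 0.0442 and 0.205, beside 22.1% of probe sets that fell.

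Genes that act with the members were counted between gland and tumor as well, beside 21.5% of all genes that fell and 29.4% that rose. In the growth factor axis 3 of 9 genes fell and 0 rose, Csf1 by 2.25 ± 0.31 (adjusted p = 7.731e-08 by limma), Maf by 1.77 ± 0.46 and Csf2rb by 1.77 ± 0.49. Of 9 complement genes 6 fell and 1 rose, with C1s1 and C1ra, 2 proteases that join C1q in the first complement complex, lower by 3.00 ± 0.40 and 2.67 ± 0.43. Of 7 trafficking genes 4 fell, led by Ccl2 (-3.66 ± 0.46), and of 14 phagocytic receptors 5 fell and 3 rose, with Mrc1 at -2.39 ± 0.61 and Cd163 at -1.84 ± 0.43. Of 12 lysosomal genes 3 rose and 0 fell, with Ctsd at 2.53 ± 0.24. The growth factor, phagocytic and lysosomal counts lay near the shares of all genes and were not tested against them.

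The makeup of the tissue differed between these groups by marker genes. All 9 fibroblast and all 9 endothelial markers were lower in tumors, 5 of 13 epithelial markers were higher and 1 lower, and 5 of 11 neutrophil markers were higher, led by Prtn3 (4.64 ± 0.43) and S100a8 (4.33 ± 0.71). The summed intensity of the 11 neutrophil markers was 1005 to 3190 in glands and 2788 to 15580 in unsorted primary tumors. Since Lyz2, Itgam, Tyrobp and Fcer1g are shared with neutrophils, these values are given beside the member values, and their part was not tested.

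From sorted hyperplasia to sorted primary tumors every member had a difference below 0, with a median of -1.27. Itgam alone passed the threshold, lower by 1.13 ± 0.33 (adjusted p = 0.0399 by limma), beside 2.5% of genes that fell, and 6 members had an unadjusted p under 0.05. Csf1r differed by -1.56 ± 0.71 (95% interval -2.98 to -0.13) and Lyz2 by -1.85 ± 0.70 (95% interval -3.25 to -0.44), with adjusted p of 0.233 and 0.132. The Itgam call was lost without hyperplasia replicate 1, 2 or 4 and on each side of the Gapdh split, where no member was called and the differences were -0.18 to -0.96 below -0.1 (beside 1.93% of genes lower) and -1.60 to -2.84 above it (beside 1.16%), where hyperplasia is 1 array, assumed to vary like the other groups. Of the other lists, 6 of 8 B and plasma cell markers fell (Jchain by 4.74 ± 0.81 and Ighm by 2.82 ± 0.56), 3 of 9 complement genes fell (C1s1, C1ra and Cd93), 1 leukocyte gene fell (Itga4 at -2.22 ± 0.37), and no trafficking, lysosomal or growth factor gene was called. Markers of other cell types were lower as well: 2 of 8 dendritic cell genes (Cd209a at -2.67 ± 0.34 and Ccr7 at -1.72 ± 0.23), 3 of 9 fibroblast genes (Dpt at -3.20 ± 0.74 and Lum at -2.92 ± 0.73 among them), 3 of 9 endothelial genes and 2 of 7 T and NK cell genes. The neutrophil gene Prtn3 was higher by 3.18 ± 0.53, beside 1.29% of all genes, no epithelial marker was called, and the part of these cell types in the member values was not tested.

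Sorted transplanted tumors were lower than sorted hyperplasia for 7 of 10 members by limma, beside 3.95% of genes. This comparison was also taken from the order of the groups, where hyperplasia was highest for every member. Csf1r was lower by 2.71 ± 0.72 (6.53-fold, adjusted p = 0.0155), Lyz2 by 2.58 ± 0.71 (adjusted p = 0.0195) and Itgam by 1.90 ± 0.34 (adjusted p = 0.000203). C1qa, C1qc and Fcer1g missed the threshold, with adjusted p of 0.0681, 0.0527 and 0.0667. Without hyperplasia replicate 1, or without replicate 2, 1 member was called, beside 1.44% and 2.2% of genes. No member was called without both of them (0.759% of genes). With only the groups compared 1 was called (0.866%), and 1 with the control transcripts as a covariate (1.49%). The Gapdh split was placed with the member values in view, so its fits describe the arrays and are no test. With the split as a term 1 member was called (1.37%), and 1 with the sorted arrays below it (2.42%). With array weights 4 were called (2.43%), and in the fit without mouse of origin as a block all 10.

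Transplantation itself gave no call among the members. Sorted transplants minus sorted primary tumors had 10 differences below 0 (median -0.83) and 0 calls by limma, as did all genes (0%), while 5 members had an unadjusted p under 0.05. The nearest pairs of sorted specimens differed less. The ten-gene mean was 10.79 in primary tumor E344T and 10.56 in transplant E344T2P1 of the same mouse, and 8.46 in F433T4 and 7.97 in its passage 1 transplant F433T4P1. From mouse D279 the transplants D279T1P2, D279T1P4 and D279T2P2 were at 8.01, 7.19 and 9.57, beside 8.52 for the unsorted primary tumor D279T1. These are single arrays, with no test. The E344 pair lay below the Gapdh split and the F433T4 pair above it. Likeness within a pair therefore cannot be told apart from the side of the split.

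Unsorted transplants minus unsorted primary tumors had 0 members called by limma and 0 at an unadjusted p under 0.05, beside 0.944% of genes called in either direction, and a median difference of -0.46. The 4 unsorted transplants, from 2 mice of origin, lay close together, with ten-gene means of 8.12 to 8.42 inside the 7.64 to 10.02 of the primary tumors. Mouse CR115 gave both kinds: its unsorted primary tumor was at 8.83 and its transplants CR115-3 and CR115-4 at 8.30 and 8.12, with no test. Sorted minus unsorted transplants also had 0 members called by limma and 1 (Adgre1) at an unadjusted p under 0.05, beside 17.5% of genes, with 9 differences above 0 and a median of 0.44. Csf1r differed by 1.43 ± 0.77 (95% interval -0.11 to 2.98) and Lyz2 by 0.02 ± 0.76 (95% interval -1.51 to 1.54). The sorted and the unsorted transplants began in different mice, so that sorting cannot be told apart from mouse here either.

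The same split was applied to this comparison, again as a description without a test between the sides. The unsorted transplants all lay above -0.1, so only the fit with the sorted arrays below it crosses the split. With the 4 sorted transplants below -0.1, 5 members were called higher by limma, Csf1r (2.79), Tyrobp (2.25), Adgre1 (1.87), Fcer1g (1.82) and C1qb (1.63), beside 12.4% of genes. With the 3 above it 0 were called, beside 3.41% of genes, and all 10 differences lay below 0, from -0.13 to -1.69. In these arrays the mean log2 level of the fibroblast markers was 8.34 to 10.01 below the split and 7.14 to 7.98 above it, and that of the epithelial markers 9.95 to 10.81 below (median 10.35) and 10.77 to 11.19 above (median 11.10), and their part was not tested. The difference between the sorting effect in transplants and in primary tumors was tested as an interaction, with 0 members called by limma and 0 at an unadjusted p under 0.05, beside 0.0858% of genes in either direction. All 10 values lay below 0 with a median of -0.52.

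In both transplant comparisons against primary tumors no gene of any list was called. In sorted against unsorted transplants Csf1 (1.93 ± 0.42) and Irf8 (1.52 ± 0.56), a transcription factor gene of monocyte development, rose, as did Ccl2 (2.36 ± 0.61), Cd14 (2.41 ± 0.50) and the fatty acid receptor gene Cd36 (3.24 ± 1.02), while the leukocyte gene Lcp1 fell by 1.00 ± 0.36.

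Against the wild-type gland 1 member was called in each of 2 other comparisons. Itgam was higher in sorted primary tumors by 1.21 ± 0.31 (adjusted p = 0.00385 by limma, beside 11.9% of genes higher), and Csf1r was lower in unsorted transplants by 1.96 ± 0.81 (adjusted p = 0.0482, beside 16.8% of genes lower). The 4 transplants lay below all 5 glands for Csf1r and Adgre1, beside 17.6% of genes.

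Across the unsorted primary tumors the members varied together. Over the means of 14 mice, Pearson's r was 0.33 to 0.96 over the 45 pairs (median 0.78) and Spearman's rho 0.22 to 0.96. By permutation tests, two-sided with 100000 resamples and adjusted over the 45 pairs, 42 pairs had an adjusted p under 0.05 for Pearson's r. C1qc and Fcer1g had the highest r (0.958, rho = 0.952, permutation p = 1e-05, the smallest the resamples can give), and r was 0.963 without the 2 mice farthest from the median of C1qc. C1qa, C1qb and C1qc correlated pairwise at 0.889 to 0.943, and Tyrobp and Fcer1g at 0.909.

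Csf1r stood further from 2 of the others. The 3 pairs that missed the threshold were Csf1r and Itgam (r = 0.33, rho = 0.39, permutation p = 0.242), Csf1r and Cd68 (r = 0.38, rho = 0.22, permutation p = 0.180) and Cd68 and C1qb (r = 0.51, rho = 0.54, permutation p = 0.0613). Without the 2 mice farthest from the median, r was 0.19, -0.09 and 0.49 for these pairs, and over all pairs -0.09 to 0.96 with a median of 0.75. Csf1r and Adgre1 correlated at 0.82, and at 0.65 without 2 mice. All arrays share the same scaling, and Itgam pairs hold values at the floor.

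**Figure D4:**
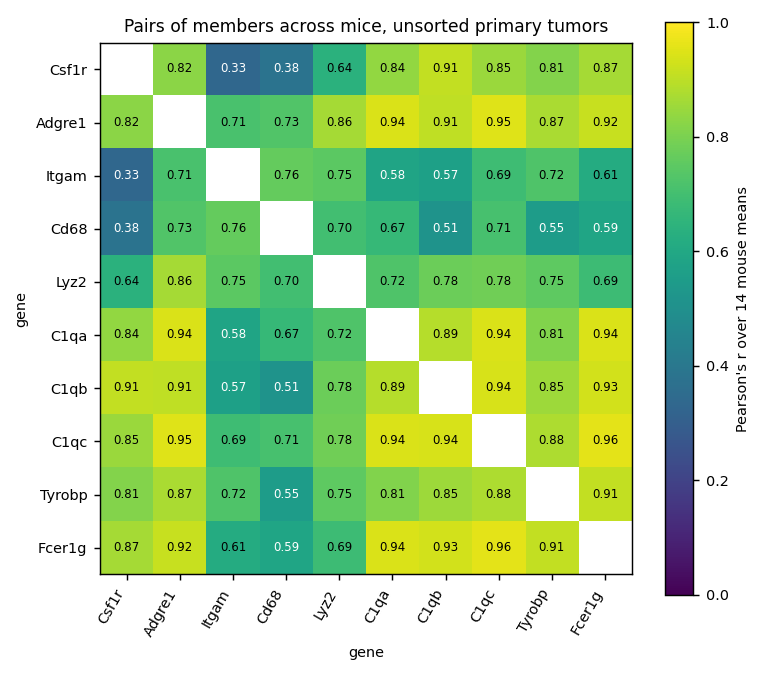
Pearson's r between the log2 levels of each pair of the 10 genes (both axes) over the means of 14 mice in unsorted primary tumors, as colour and number. The C1q chains, Tyrobp and Fcer1g correlate at 0.8 or above with each other, and the lowest values are those of Csf1r with Itgam (0.33) and with Cd68 (0.38).

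Tumors of 1 mouse differed widely in the members in some mice and little in others. In the 6 mice with several unsorted tumors (14 tumors) the SD within a mouse was 0.48 to 1.00 on the log2 scale. It was larger for all 10 members than the SD of the 14 mouse means, 0.40 to 0.64. These are unlike measures, since a mouse mean averages its tumors and the 14 means include mice with 1 tumor. The widest range was that of C1qc in mouse C117, 2.88. The ten-gene mean of the 4 C117 tumors was 8.25, 8.77, 10.02 and 9.81, and the 2 tumors of mouse C395 were at 7.81 and 9.61, and those of B459 at 9.33 and 8.39. The tumors of D14 (9.08 and 9.10), D206 (8.13 and 8.31) and D254 (8.49 and 8.14) lay closer together. Sorted tumors F433T1, F433T3 and F433T4 of 1 mouse were at 9.80, 8.37 and 8.46.

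**Figure D5:**
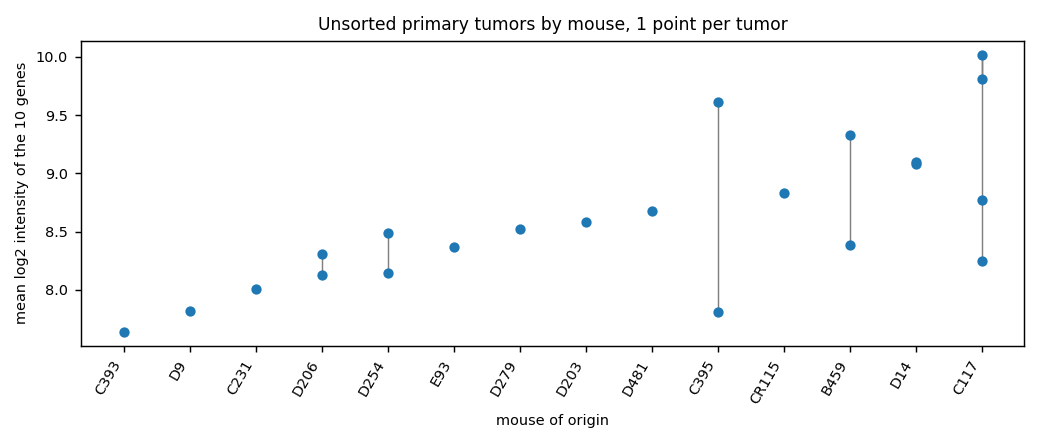
Mean log2 intensity of the 10 genes (vertical axis) in each unsorted primary tumor, 1 point per tumor, by mouse of origin (horizontal axis, in order of the mouse mean). The tumors of C117 span 8.25 to 10.02 and include the highest of the 22 tumors, which span 7.64 to 10.02.

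The genes most like the members over the 22 unsorted primary tumors were ranked by Pearson's r with the ten-gene mean, a description over 14940 genes with a median r of -0.02. They were Cd52 (r = 0.965), Gngt2 (0.953), Csf2rb2 (0.945), Ms4a6b (0.938), Fcgr3 (0.934), Ms4a6d (0.931), Ms4a7 (0.922), Mpeg1 (0.918), Aif1 (0.918) and Spi1 (0.907). Cd52 encodes a small leukocyte surface glycoprotein, Fcgr3 an Fc receptor that uses the Fcer1g chain, Mpeg1 perforin-2, Aif1 the actin-binding protein Iba1 and Spi1 the factor PU.1. In the sort Csf2rb2 (1.12 ± 0.34, adjusted p = 0.0109 by limma) and Spi1 (0.69 ± 0.26, adjusted p = 0.0451) were higher, and the other 8 were not called. Against the gland Csf2rb2 was lower in unsorted tumors by 2.58 ± 0.39 (adjusted p = 3.141e-07) and Ms4a7 higher by 1.22 ± 0.50 (adjusted p = 0.0357).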

How the data were processed

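The authors deposited probe set intensities of Affymetrix MOE430.2 arrays on a linear scale, 1 column per array. The labels name Trizol extraction, column clean-up and biotin-labelled cRNA. Summarization and scaling are not given in the sources used. A scaling factor would move every gene of an array. A probe set in which 2 values exceeded every other value of the table (21364 at most) was dropped.

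Gene names came from the platform annotation: of 45101 probe sets, of which 64 are controls, 34944 have 1 symbol, 932 several and 9160 none. Intensities were floored at 32 and turned to log2. A gene, taken by its brightest probe set, was tested where 4 or more arrays put it above their own 40th percentile. The 2 arrays of 1 tumor (r = 0.987) were averaged, leaving 50 replicates. All groups entered 1 limma 3.58.1 fit (R 4.3.3, lmFit, eBayes) with the 32 mice of origin as a random block (consensus correlation 0.358), and p-values were adjusted over 15150 genes with a threshold of 0.05. The replicate numbers of the groups name samples and pair none. The fit was also run on simulated data in which a gene had the same spread in every group. That run cannot show how the fit handles the uneven spread of these groups. Python 3.11.15 with scipy 1.17.1, pandas 2.3.3, numpy 2.4.6 and matplotlib 3.10.9 served for correlations and plots.

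All members and their probe sets were named, up to 3 called genes of each related list and 2 of each marker list, and the 10 genes most like the members. The members, the lists and the tests were chosen with earlier results of these data known. Alternatives were the floor, probe set, filter, scaling, block, covariates and samples left out.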

Additional observations from a re-analysis of the deposited data

Results flagged for a closer look

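Of 50 gene and group combinations of 4 to 10 samples, 3 held a sample far from the others, and chance gives about 1 in 20. Wild-type gland replicate 2 was the highest gland for Csf1r, at 11.24 on the log2 scale with the next gland at 10.41, and for Itgam, at 5.394 with the next at 5.027 and the others at the floor. Unsorted transplanted tumor replicate 2 was the lowest of its group for C1qb, at 8.708 with the next at 9.159.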

How the results depend on the processing

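Each count of members called was recomputed under 18 to 28 alternatives. Of 444 recomputed counts, those of correlated pairs included, 403 stayed within 1.5 times the main count. Most of these 403 were counts of 0 that stayed at 0, and nearly all counts that moved had calls in the main fit. Of 2210 member differences under the alternatives, 1997 kept their direction and side of the threshold, most of them called in neither fit. Of the others, 158 kept the direction and lost the call, 22 gained it and 33 changed sign. The sort called 3 members, against 10 with only the sorted arrays below a Gapdh ratio of -0.1 and 0 with those above. That split was placed with the member values in view, and the unsorted tumors all lay above it. Fits that use the split, here and below, therefore describe the arrays and are no test, and the totals above include them. The fit without the replicate block (mouse of origin) called the same number of members in the sort (3, with 1371 genes higher), and 10 in place of 7 for sorted transplants against hyperplasia. The Csf1r call of tumor against gland (1) became 0 with a floor of 64 or 100, the mean of the probe sets, probe sets without a suffix, no filter or the Gapdh covariate, and 0 without any 1 gland. It held in 10 of its 21 alternatives. The Itgam call of sorted tumor against hyperplasia (1) became 0 with a floor of 16, only the groups compared, the spike-in covariate, array weights, the Gapdh split as a term, either side of the split or without hyperplasia replicates 1 and 2, and was 0 to 1 without 1 hyperplasia. Sorted against unsorted transplants had 5 calls below the split in place of 0. Hyperplasia against gland (10) had 2 with the spike-in covariate, 1 without replicates 1 and 2, 2 above the split and 5 to 10 without 1 sample. Sorted transplants against hyperplasia (7) had 1 with only the groups compared, the spike-in covariate, the Gapdh term or below the split, 4 with array weights, 0 without replicates 1 and 2 and 1 to 8 without 1 hyperplasia. Hyperplasia against unsorted tumor (10) had 2 with the spike-in covariate or above the split and 4 without replicates 1 and 2. Above the split the sort's difference was -0.54 for Cd68, -0.48 for Lyz2, -0.81 for C1qa, -0.62 for C1qb, -0.82 for C1qc, -0.64 for Tyrobp and -0.41 for Fcer1g. For sorted against unsorted transplants it was -0.57 for Csf1r, -0.13 for Adgre1, -0.14 for Itgam, -1.51 for Lyz2, -1.33 for C1qa, -1.52 for C1qb, -1.69 for C1qc, -1.18 for Tyrobp and -1.18 for Fcer1g above the split. In that comparison Cd68 was 0.18 with a floor of 100, 0.013 with median centring and 0.68 below the split. Lyz2 there was -0.15 without the block, -0.49 with the spike-in covariate, -0.27 with the Gapdh covariate, and -0.12 to 0.11 without 1 unsorted transplant (replicates 4 and 1). C1qa, C1qb and C1qc there were -0.22, -0.32 and -0.58 with the spike-in covariate, and C1qc -0.10 without the block and -0.21 with the Gapdh covariate. Below the split the difference of sorting effects was 0.061 for Fcer1g. In tumor against gland C1qb was -0.0011 with quantile normalization and -0.016 to 0.48 without 1 gland (replicates 4 and 2), and Tyrobp -0.27 to 0.014 (replicates 5 and 2). The causes were not tested. Itgam lies near the floor, and its call in the sort was lost with a floor of 100. Over the 22 tumors in place of 14 mice 45 of 45 pairs passed the threshold, and 34 did with a floor of 100.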
